A study of Mus musculus with 8 samples.

Results

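Fat tissue takes up fatty acids from blood lipoproteins with the help of a small set of proteins, and 9 of their genes were examined here: Fabp4, Fabp5, Cd36, Slc27a1, Lpl, Angptl4, Gpihbp1, Fgf21 and Olr1. They were chosen by symbol from what is known of fatty acid uptake, fatty acid binding and lipoprotein lipase control, and all 9 were found among the 23212 gene symbols of the count files. RNA was sequenced from whole perigonadal fat of 4 mice with an adipocyte-specific gene knockout and 4 wild type mice. All 8 were C57BL/6 mice, 20 weeks old at collection and on a 45% fat diet for 12 weeks from the age of 8 weeks, and the genotypes were matched for age and weight. The targeted gene is not reported here, and no source used here gives the driver of the deletion. The knockout is labelled as one of adipocytes, whereas the RNA came from the whole tissue with all its cell types.

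Lipoprotein lipase (Lpl) is made by adipocytes and carried to the capillary wall by GPIHBP1 of endothelial cells, where it releases fatty acids from triglyceride-rich lipoproteins. ANGPTL4 inactivates the enzyme, CD36 and FATP1 (Slc27a1) help fatty acids into cells, and FABP4 and FABP5 bind them in the cytoplasm. Many of these genes are known targets of the PPAR nuclear receptors, which fatty acids and their derivatives activate. FGF21 is a fasting hormone and fat-derived signal that PPARs induce, and OLR1 (LOX-1) is a receptor for oxidised low density lipoprotein.

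The libraries held 46444435 to 51431956 counts. Levels below are CPM, counts relative to a library size scaled by TMM (a correction for differences in library composition), and 14493 genes had enough counts to be tested. The tissue carried its defining transcripts: 11 mature adipocyte markers summed to 29640 to 40390 CPM in knockout mice and 27330 to 36880 CPM in wild type mice, led by Cfd and Cidec. Summed macrophage markers ran from 810 to 3290 CPM in knockout and from 607 to 1847 CPM in wild type mice, and endothelial markers from 1098 to 1746 CPM in knockout and from 1060 to 1639 CPM in wild type mice. Of 9 marker lists, that of smooth muscle and pericytes, led by Mcam and Acta2, was the one whose genotypes did not overlap, at 1086 to 1220 CPM in knockout and 1330 to 1694 CPM in wild type mice. Its exact permutation test gave p = 0.0286 (two-sided, n = 4 each), the smallest that 70 arrangements allow, and 0.257 adjusted over the 9 lists. The 10 epididymal and ciliated epithelium markers reached 158 CPM in knockout mouse 2 and 53.7 CPM in wild type mouse 3, against 4.21 to 28.4 CPM in the other 6, so results are also given without this pair where they turn.

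The 9 genes spanned the range from the most abundant tested gene per kilobase of exon to nearly none. To compare genes, CPM was divided by exonic length in kilobases (RPKM). Fabp4 stood first of the 14493 tested genes at 26940 ± 4093 RPKM in knockout and 26610 ± 5373 RPKM in wild type mice (SD, n = 4 each). Lpl followed in 7th place with 3937 ± 1387 RPKM in knockout and 4199 ± 295 RPKM in wild type mice, and Cd36 in 25th place with 1317 ± 170 RPKM in knockout and 1412 ± 188 RPKM in wild type mice. Below them came Angptl4 with a mean of 578 RPKM over the 8 mice, Gpihbp1 with 296, Slc27a1 with 183 and Fabp5 with 63.2. Fgf21 and Olr1 averaged 0.772 and 0.13 RPKM over the 8 mice and ranked 12026 and 14069. From Fabp4 down to Gpihbp1, no mouse's value for one gene reached the values of the next in order. The ranges of Gpihbp1 and Slc27a1 overlapped, as did those of Slc27a1 and Fabp5 and those of Fgf21 and Olr1. Within single mice Gpihbp1 was above Slc27a1 in all 8, Slc27a1 above Fabp5 in 7 of 8, and Fgf21 above Olr1 in all 8. Together the 9 genes took 3.60% to 4.60% of all counts of a library.

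**Figure D1:**
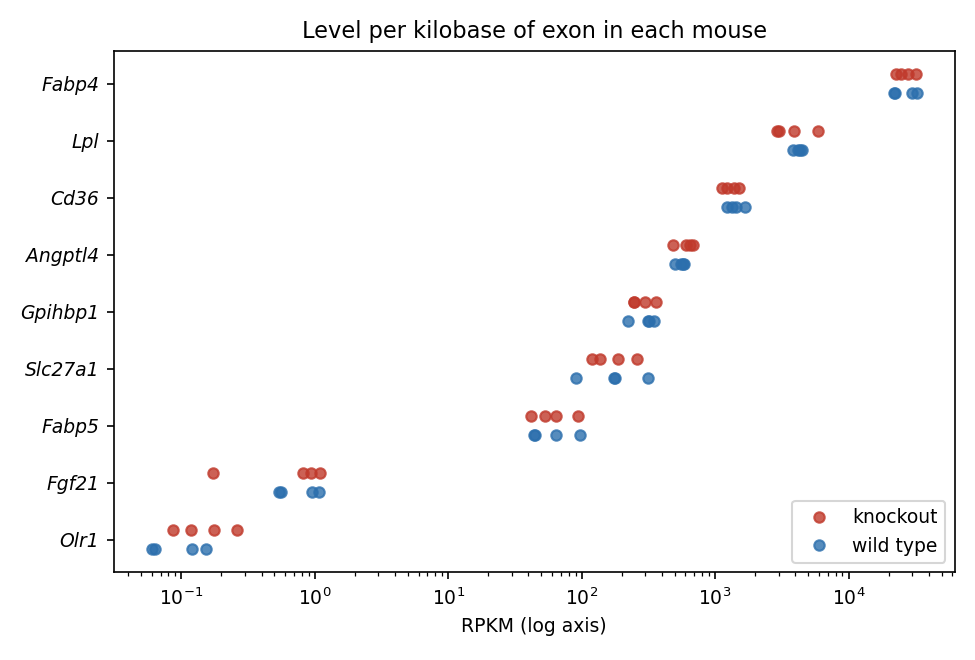
Level of each gene in RPKM (log axis) with 1 point per mouse, knockout above wild type within each gene. Fabp4 lies at 21820 to 32300 RPKM in all 8 mice, Fabp5 at 41.9 to 97.4 RPKM and Olr1 at 0.0604 to 0.264 RPKM, and the genotypes overlap for each gene.

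Fabp4 and Fabp5 lie on the same chromosome and encode related proteins that bind the same kinds of fatty acid. In the deposited annotation (mm10), Fabp4 spans chr3:10204343-10208576 on the minus strand and Fabp5 spans chr3:10012606-10016610 on the plus strand, each with 4 exons. Per kilobase, Fabp4 exceeded Fabp5 by 241- to 592-fold in knockout mice and by 228- to 671-fold in wild type mice. The gap was narrowest in knockout mouse 2 and wild type mouse 2, the mice with the highest Fabp5. No 50-base stretch of the GENCODE Fabp4 transcripts occurred in a transcript of a gene outside the 9. The 9 genes, Fabp4 and Fabp5 among them, were not compared with each other in this way. Of 3611 such stretches of Fabp5, 198 also occurred in 5 processed pseudogenes that are not among the counted genes, so its counts are less certain. Lpl shared 118 of 10329 stretches with 149 genes outside the 9 and Slc27a1 86 of 6005 with 140. Of these, 93 and 96 are among the counted genes. The other 6 genes shared none with genes outside the 9. Reverse complements of the stretches were not searched. None of the 9 genes shared exonic bases with another symbol of the deposited annotation. Cd36 is the gene with the most complex locus, at chr5:17781690-17888959 with 5 transcripts and 17 exon blocks. The exonic length behind its RPKM, 3927 bases, joins the exons of all 5, and lengths of single transcripts were not computed.

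RefSeq promoter windows (GRCm38.p6, 250 bases before to 50 after a start site) matched 4 of the 9 genes, Cd36, Slc27a1, Fgf21 and Olr1, and those of Cd36, Olr1 and Fgf21 are shown because they belong to an abundant gene and the pair with the lowest levels. They lie at chr5:17835847-17836146, chr6:129507116-129507415 and chr7:45615441-45615740, all on the minus strand and each ending 50 bases into a start that the deposited annotation also has. Cd36 has 5 deposited transcripts, and the start shown, at 17835896, lies inside its locus, which runs to 17888959. Which Cd36 start these mice used was not tested. Capitals mark AGGTCA, the 6-base element of nuclear receptors such as the PPARs, on either strand, and TATAAA, the TATA box, on either strand.
Cd36: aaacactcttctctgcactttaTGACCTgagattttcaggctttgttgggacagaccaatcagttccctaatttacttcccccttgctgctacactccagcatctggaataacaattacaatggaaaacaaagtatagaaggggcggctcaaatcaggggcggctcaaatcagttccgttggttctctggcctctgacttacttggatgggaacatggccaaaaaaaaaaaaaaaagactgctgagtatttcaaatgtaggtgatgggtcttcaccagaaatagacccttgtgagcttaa
Olr1: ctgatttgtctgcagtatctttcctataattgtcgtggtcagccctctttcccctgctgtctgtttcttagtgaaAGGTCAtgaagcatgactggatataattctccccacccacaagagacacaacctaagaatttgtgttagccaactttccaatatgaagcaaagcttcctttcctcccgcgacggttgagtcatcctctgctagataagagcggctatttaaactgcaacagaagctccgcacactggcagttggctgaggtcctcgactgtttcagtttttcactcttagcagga
Fgf21: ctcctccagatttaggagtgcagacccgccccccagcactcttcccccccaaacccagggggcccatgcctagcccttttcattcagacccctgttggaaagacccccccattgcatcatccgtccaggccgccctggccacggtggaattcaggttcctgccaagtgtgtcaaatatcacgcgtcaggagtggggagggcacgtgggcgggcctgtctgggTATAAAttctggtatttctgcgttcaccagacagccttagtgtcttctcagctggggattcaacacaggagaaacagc
Cd36 has 1 AGGTCA at position -228 on the strand opposite to the gene, Olr1 has 1 at -175 on its own strand, and Fgf21 has 1 TATAAA at -28 and no AGGTCA, counting the first base of the match from the start site. Among all 32851 windows of the table, 16.3% hold AGGTCA and 13.6% hold TATAAA. The full PPAR element AGGTCA repeated after 1 base of any kind, is in none of the 6 windows of these 4 genes and in 0.0396% of all windows. Distal enhancers lie outside these windows.

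None of the 9 genes differed between knockout and wild type past the threshold. Knockout and wild type were compared by the edgeR quasi-likelihood F test with Benjamini-Hochberg adjustment over all 14493 genes, in which 0.0138% of genes passed an adjusted p of 0.05. The adjusted p was 1.00 for all 9. At an unadjusted p under 0.05, which 2.23% of all tested genes reached, there were also 0 of the 9. With limma voom 0 of all 14493 genes passed, the 9 included. DESeq2, which called 0.117% of all genes, called 0 of the 7 for which it gave an adjusted p, with none for Fgf21 and Olr1. Knockout and wild type values overlapped in all 9 genes, while 1.44% of tested genes had groups without overlap. On the log2 scale 4 of the 9 lay above 0 and 5 below, with a median of -0.04, against 53.1% above 0 and a median of 0.01 over all tested genes. Because 4 mice a genotype leave wide intervals, the 95% interval of each fold change is given with it.

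**Figure D2:**
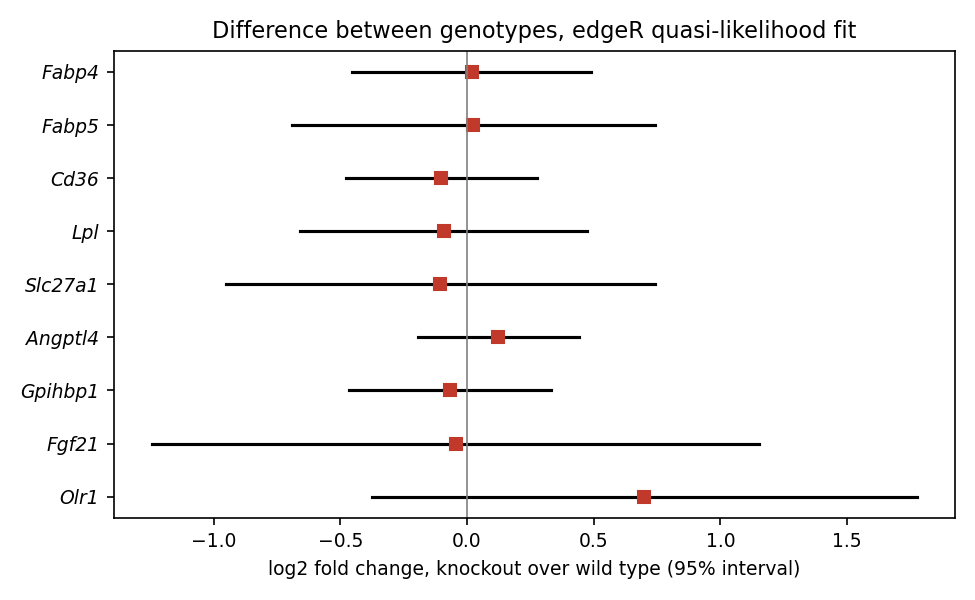
Log2 fold change of each gene, knockout over wild type (square), with its 95% interval from the edgeR quasi-likelihood fit (line). All 9 intervals include 0, the narrowest being that of Angptl4 (-0.19 to 0.44) and the widest that of Fgf21 (-1.24 to 1.15).

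Of the binding proteins, Fabp4, the main carrier of fatty acids in adipocytes, was at 20600, 14600, 18000 and 15880 CPM in the knockout mice, numbered 1 to 4 in this order throughout, against 20710, 14250, 13990 and 19280 CPM in the wild type mice. The highest mice, mouse 1 of each genotype, and the lowest, knockout mouse 2 and wild type mice 2 and 3, came from both groups, so the spread lay within genotypes. Its log2 fold change was 0.02 (standard error, SE, 0.21), with a 95% interval from 0.729- to 1.41-fold. Fabp5, the form also found in skin, was at 60.3, 88.2, 49.9 and 39.0 CPM in knockout mice and at 59.9, 90.7, 41.0 and 41.8 CPM in wild type mice. Mouse 2 of each genotype was the highest and the groups covered nearly the same range. The log2 fold change was 0.02 (SE 0.32), with an interval from 0.619- to 1.67-fold, and it turned to -0.37 without wild type mouse 3 and knockout mouse 2.

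Of the membrane proteins, Cd36, a receptor for long-chain fatty acids, was at 5473, 4841, 5937 and 4433 CPM in knockout mice and at 6544, 4809, 5232 and 5597 CPM in wild type mice. The highest mouse was wild type and the lowest knockout, with the others mixed. The log2 fold change was -0.10 (SE 0.17), with an interval from 0.718- to 1.21-fold. Slc27a1, which encodes the fatty acid transporter and acyl-CoA synthetase FATP1, was at 521, 386, 728 and 331 CPM in knockout mice and at 493, 255, 494 and 873 CPM in wild type mice. Both the lowest and the highest value were those of wild type mice, which differed by 3.42-fold, against 2.20-fold among knockout mice. Its log2 fold change was -0.11 (SE 0.37), with an interval from 0.517- to 1.67-fold, and was 0.25 without wild type mouse 4.

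**Figure D3:**
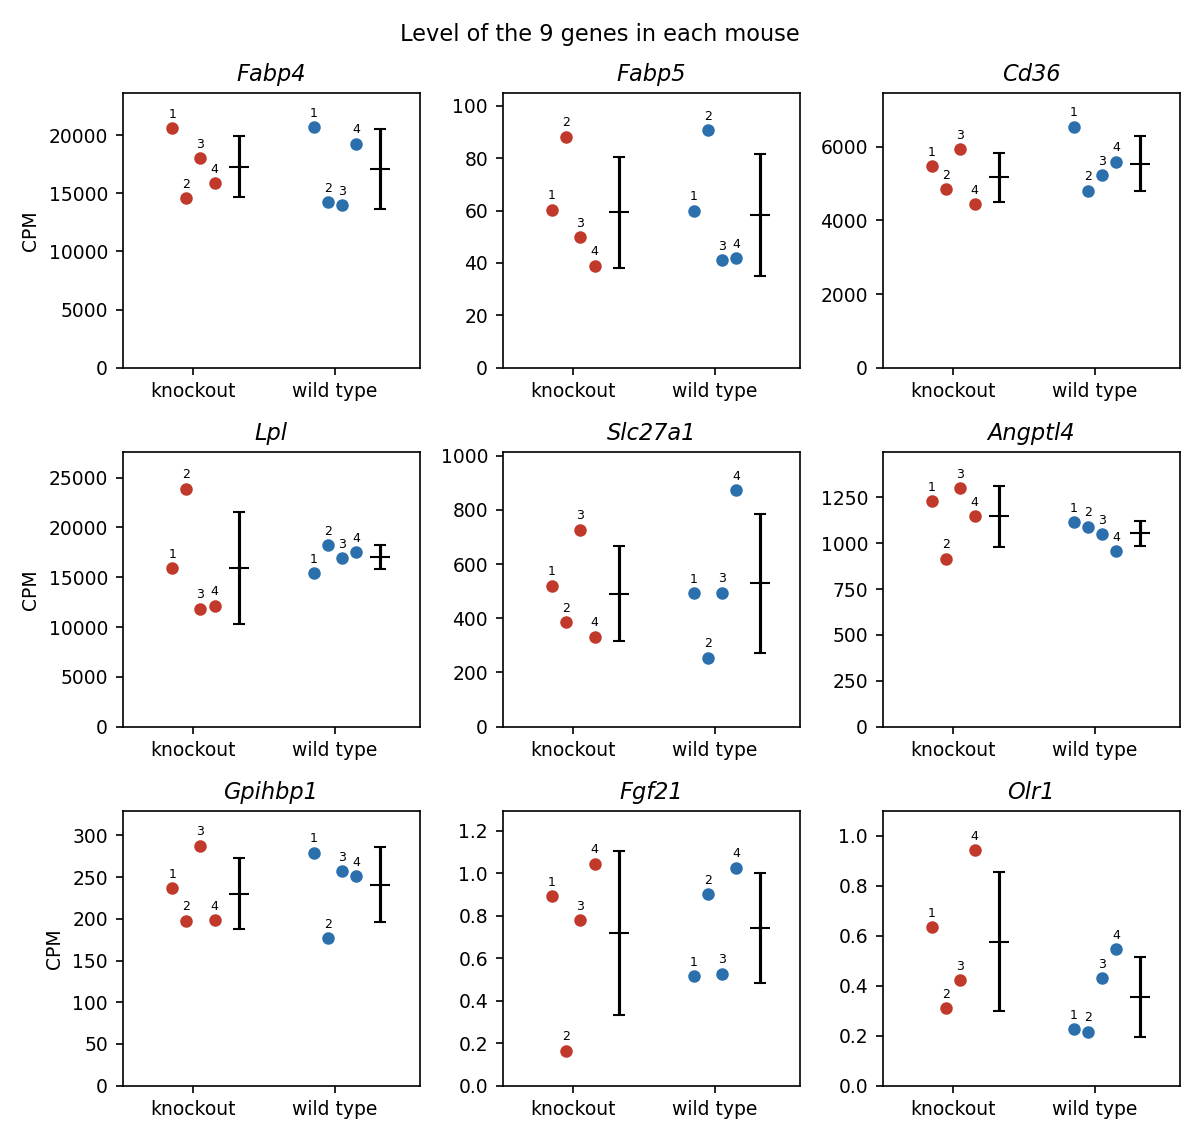
CPM of each gene in knockout (left) and wild type (right) mice, 1 numbered point per mouse, with the mean and SD as a bar at the right of each group (n = 4). The groups overlap in every panel, and Lpl runs from 11820 to 23890 CPM in knockout mice against 15400 to 18200 CPM in wild type mice.

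Of the genes of lipase control, Lpl was at 15930, 23890, 11820 and 12130 CPM in knockout mice and at 15400, 18200, 16880 and 17510 CPM in wild type mice. Knockout mouse 2 lay above and knockout mice 3 and 4 lay below all wild type mice, so that the coefficient of variation was 35.2% in knockout and 7.02% in wild type mice; this difference in spread was not tested. Counting error was 0.113% and 0.109% of the mean in knockout and wild type libraries, far below this spread. The log2 fold change of Lpl was -0.09 (SE 0.25), with an interval from 0.634- to 1.39-fold. It was -0.36 without knockout mouse 2 (unadjusted p = 0.0842, adjusted p = 1.00 in edgeR) and 0.025 without knockout mouse 3. Angptl4, the inhibitor of the enzyme, was at 1228, 916, 1300 and 1146 CPM in knockout mice and at 1115, 1090, 1049 and 957 CPM in wild type mice. Knockout mice 1, 3 and 4 were above all wild type mice and knockout mouse 2, the one with the highest Lpl, was below them. Knockout mouse 2 was also the mouse with the most epididymal and ciliated epithelium marker signal (158 CPM). The coefficient of variation of Angptl4 was 14.5% in knockout and 6.57% in wild type mice. Its log2 fold change was 0.12 (SE 0.14) and the interval 0.874- to 1.36-fold. Gpihbp1, the endothelial anchor of the enzyme, was at 237, 198, 288 and 198 CPM in knockout mice and at 279, 177, 257 and 251 CPM in wild type mice. Its values were interleaved between genotypes, with a log2 fold change of -0.07 (SE 0.18) and an interval from 0.724- to 1.26-fold.

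Enzyme and inhibitor were also set against each other within each mouse. Per kilobase, Lpl exceeded Angptl4 by 6.10-, 12.3-, 4.27- and 4.98-fold in knockout mice 1 to 4 and by 6.49-, 7.85-, 7.56- and 8.60-fold in wild type mice 1 to 4. Knockout mice 1, 3 and 4 were below all wild type mice in this ratio. Knockout mouse 2, which had the most epididymal and ciliated epithelium marker signal, was above them. The ratio of Lpl to Gpihbp1 was 14.3 ± 6.70 in knockout and 14.4 ± 4.07 in wild type mice (SD, n = 4 each), with mouse 2 of each genotype at the top.

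Fgf21 and Olr1 had few counts. Fgf21 had 45, 8, 37 and 51 counts in knockout mice and 25, 46, 27 and 49 counts in wild type mice, which is 0.72 ± 0.386 CPM in knockout and 0.743 ± 0.261 CPM in wild type mice (SD, n = 4 each). Knockout mouse 2 was the lowest of all and the others of both genotypes overlapped. The log2 fold change was -0.04 (SE 0.53) with an interval from 0.423- to 2.22-fold, so a doubling would lie within it, and it was 0.28 without knockout mouse 2. Olr1 had 32, 15, 20 and 46 counts in knockout mice and 11, 11, 22 and 26 counts in wild type mice, or 0.576 ± 0.278 CPM in knockout and 0.354 ± 0.16 CPM in wild type mice. Knockout mice 1 and 4 were above all wild type mice and knockout mice 2 and 3 lay among them. Olr1 had the largest fold change of the 9, at 0.70 on the log2 scale (SE 0.47, unadjusted p = 0.174, adjusted p = 1.00 in edgeR), with an interval from 0.772- to 3.42-fold, and was at 0.35 without knockout mouse 4. Counting error alone came to 18.8% of the mean of Olr1 in knockout and 23.9% in wild type libraries.

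The levels of 2 of the genes followed markers of a cell type from mouse to mouse. Gpihbp1 varied with the summed level of 12 endothelial markers over the 8 mice (Pearson r = 0.947, Spearman rho = 0.929), with exact permutation p-values of 0.000992 and 0.00223. Olr1 did so with 16 macrophage markers (r = 0.939, rho = 0.952), with exact permutation p-values of 0.000645 and 0.00114. Of 27 relations computed, 9 genes with adipocyte, macrophage and endothelial markers, these were the 2 that passed, each with an adjusted p of 0.0134 for r and 0.0301 for rho by exact permutation. Without the 2 mice farthest from the median marker level, r was 0.903 for Gpihbp1 and 0.848 for Olr1. The exact permutation p of these 6 mice was 0.025 and 0.0278, and 0.275 for both after adjustment. Without knockout mouse 2 and wild type mouse 3 it was 0.964 for Gpihbp1 and 0.967 for Olr1, with an adjusted exact permutation p of 0.113 for both. With values centred within genotype r was 0.946 for Gpihbp1 and 0.947 for Olr1. In whole tissue, fewer cells of a type and less RNA per cell cannot be told apart, and the values compared share their libraries and scaling.

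Beside the fold change of Olr1, 15 of the 16 macrophage markers were higher in knockout mice by their fitted value, and none passed. Against 53.1% above 0 and a median of 0.01 over all tested genes, the median of these markers was 0.44 on the log2 scale. Their sum was 1774 ± 1149 CPM in knockout and 1168 ± 586 CPM in wild type mice (SD, n = 4 each, two-sided exact permutation p = 0.4), and all 16 were detected in both genotypes. The part of macrophage content in the Olr1 difference was not tested. Endothelial markers summed to 1352 ± 284 CPM in knockout and 1409 ± 274 CPM in wild type mice (exact permutation p = 0.829).

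**Figure D4:**
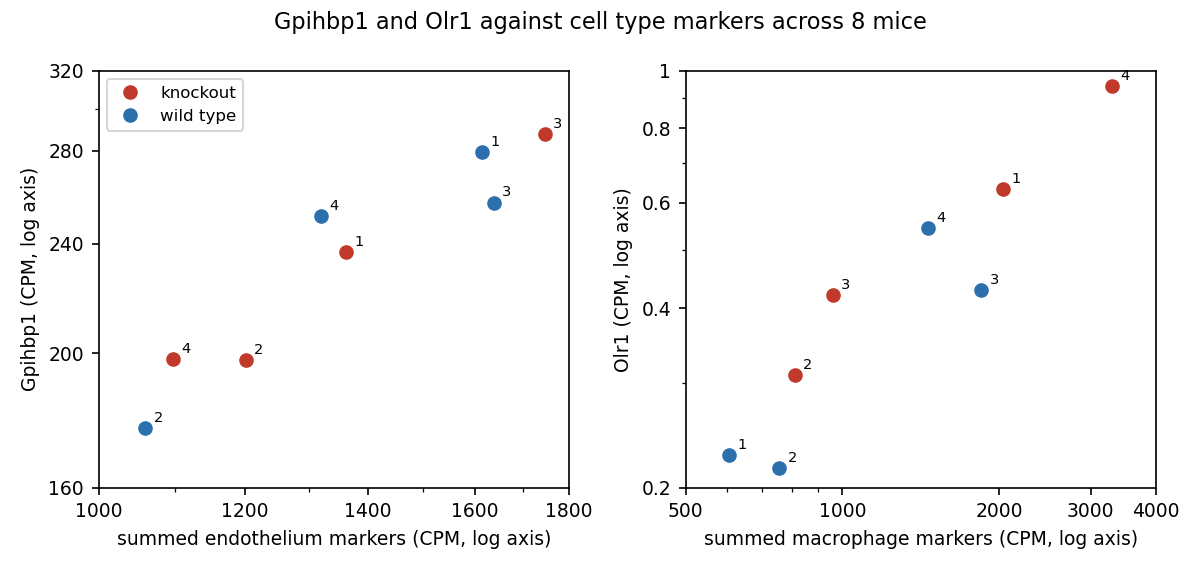
CPM of Gpihbp1 against summed endothelial markers (left) and of Olr1 against summed macrophage markers (right), 1 numbered point per mouse on log axes. Knockout mouse 3 has the most endothelial signal (1746 CPM) and the most Gpihbp1 (288 CPM), and knockout mouse 4 the most macrophage signal (3290 CPM) and the most Olr1 (0.941 CPM).

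Cd36, which adipocytes, macrophages and capillary endothelium all make, had r = 0.805 and rho = 0.762 with the endothelial markers (exact permutation p = 0.0178 and 0.0368), which did not pass after adjustment (0.16 and 0.248). Among the 36 pairs of the 9 genes, chosen for testing after the values were seen, 0 passed after adjustment. The smallest adjusted p was 0.182, shared by Cd36 with Gpihbp1 (r = 0.868, rho = 0.833), Slc27a1 with Gpihbp1 (r = 0.825, rho = 0.69) and Lpl with Angptl4 (r = -0.819, rho = -0.857), by exact permutation. The unadjusted exact permutation p-values for r were 0.00585, 0.0118 and 0.0152, and those for rho 0.0154, 0.0694 and 0.0107. Without the 2 mice farthest from the median of the second gene, r was 0.904, 0.648 and -0.47, and without knockout mouse 2 and wild type mouse 3 it was 0.894, 0.836 and -0.67.

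As a description, the genes most alike in pattern over the 8 mice were taken from 8704 genes at 10 CPM or more, by Pearson r of log2 CPM. For Gpihbp1 they were Gpr116, Adora2a and Ptprb, with r of 0.991, 0.99 and 0.987. For Olr1 they were Kctd11 and Arhgap30, with r of 0.976 and 0.966. Those of Lpl were Brp44, Gpt and Aldh1a7 (0.968 to 0.961), those of Cd36 Zc3h13, Scaf8 and Acvr1c (0.969 to 0.966), and those of Fabp5 Cd47, Echdc1 and Chchd3 (0.971 to 0.958). Fabp4 was nearest to Cpped1, Cdadc1 and Dhrs4 (0.954 to 0.922), Slc27a1 to Tacc1, Obfc2a and Tspan4 (0.962 to 0.941), Angptl4 to Tpp1, Snapin and Atf6b (0.958 to 0.946) and Fgf21 to Adamtsl4, Tulp3 and Nfkbia (0.943 to 0.93). For Fgf21 Spearman rho was lower, at 0.762, 0.619 and 0.81, with knockout mouse 2 far below the other mice in Fgf21. Every one of the 9 genes had a partner at 0.94 or more. Each such partner was the highest of 8704 genes over 8 mice, and the r that unrelated genes would reach by this choice was not tested.

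The other genes of the pathway were counted list by list, and 0 of them passed the threshold. Of 14 tested genes listed for lipoprotein lipase assembly, cofactors and inhibitors, other lipases and proteoglycans included, 11 lay above 0 and 3 below. Their median log2 fold change was 0.07, against 53.1% above 0 and a median of 0.01 over all tested genes. The median of the 14 was 0.0049 without knockout mouse 2 and 0.14 without knockout mouse 4. Apoe, an apolipoprotein that receptors recognise, was the most abundant per kilobase and was at 4444 ± 1194 CPM in knockout and 5514 ± 847 CPM in wild type mice (SD, n = 4 each). Apoc2, the activator of the enzyme, was at 4.87 ± 2.20 CPM in knockout and 3.76 ± 1.05 CPM in wild type mice. Of 23 listed proteins of fatty acid binding and transport 13 could be tested. The others, Fabp1 and Slc27a2 among them, did not have enough counts in enough libraries. Slc27a2 ran from 0 to 227 counts over the libraries and Fabp9 from 1 to 568. Of the 13 tested genes, 4 lay above 0 and 9 below, with a median of -0.07. Dbi, which binds acyl-CoA, was the most abundant of them, with 2331 ± 260 CPM in knockout and 2252 ± 111 CPM in wild type mice. Fabp7, a brain-type binding protein, had the largest log2 fold change of that list, 1.42 (SE 0.72), at 1.70, 0.268, 0.190 and 1.86 CPM in knockout mice and 0.314 to 0.419 CPM in wild type mice. Its high values were those of knockout mice 1 and 4, the mice that were also highest in Olr1.

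Of 16 lipoprotein and scavenger receptors, 7 lay above 0 and 9 below, with a median of -0.03. Msr1, the macrophage scavenger receptor that like OLR1 takes up modified lipoproteins, was at 13.3, 6.30, 5.33 and 22.6 CPM in knockout mice and at 3.88, 5.47, 11.3 and 8.09 CPM in wild type mice. Its log2 fold change of 0.72 (SE 0.50) was near that of Olr1, with the same pair of knockout mice at the top. Scarb1, the receptor for high density lipoprotein, reached 294 CPM in knockout mouse 2 and lay at 141 to 189 CPM in the other 7 mice. Knockout mouse 2 had the highest Lpl and also the most epididymal and ciliated epithelium marker signal (158 CPM). A link of Scarb1 to either was not tested.

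Among the receptors themselves, 9 of 10 genes of PPARs, their RXR partners and coactivators lay above 0, with a median of 0.13. Over all tested genes 53.1% lay above 0, with a median of 0.01. With each library left out, the median of the 10 genes ran from 0.057 to 0.18. Pparg was at 214 ± 17.8 CPM in knockout and 208 ± 21.2 CPM in wild type mice (SD, n = 4 each). Rxrg, an RXR partner, had the smallest p of the list, with 31.3 ± 1.99 CPM in knockout and 25.6 ± 4.08 CPM in wild type mice (log2 fold change 0.29, SE 0.12, unadjusted p = 0.0395 and adjusted p = 1.00 in edgeR). Of 5 tested genes listed as FGF21 receptors and related FGFs, 2 lay above 0 and 3 below, with a median of -0.01. The only FGF tested in this list was Fgf1, which is not an endocrine FGF and is also counted among the PPAR targets. Klb, the co-receptor that FGF21 needs, was at 36.3, 38.1, 38.6 and 31.6 CPM in knockout mice and at 59.5, 37.9, 52.6 and 63.1 CPM in wild type mice. Wild type mouse 2 lay among the knockout mice and the other wild type mice above them all. The log2 fold change of Klb was -0.56 (SE 0.16), with an unadjusted p of 0.00604 and an adjusted p of 1.00 in edgeR. Fgfr1, the receptor that pairs with it, was at 266 ± 50.2 CPM in knockout and 261 ± 39.0 CPM in wild type mice.

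Of 48 other tested PPAR targets, 35 lay above 0 and 13 below, which is 72.9% against 53.1% of all tested genes, with a median of 0.11 against 0.01. The median of these targets was 0.043 without wild type mouse 3 and 0.22 without wild type mouse 1. Of the 48, 1 had an unadjusted p under 0.05. This was Plin5, a lipid droplet coat protein, at 18.6, 15.4, 26.5 and 20.8 CPM in knockout mice and at 18.5, 13.98, 11.3 and 8.36 CPM in wild type mice. Wild type mouse 1 was above knockout mouse 2, so the groups overlapped, and the log2 fold change was 0.64 (SE 0.25, unadjusted p = 0.0327 and adjusted p = 1.00 in edgeR). Adipoq, the most abundant of this list per kilobase, was at 5110 ± 1356 CPM in knockout and 5243 ± 1298 CPM in wild type mice.

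**Figure D5:**
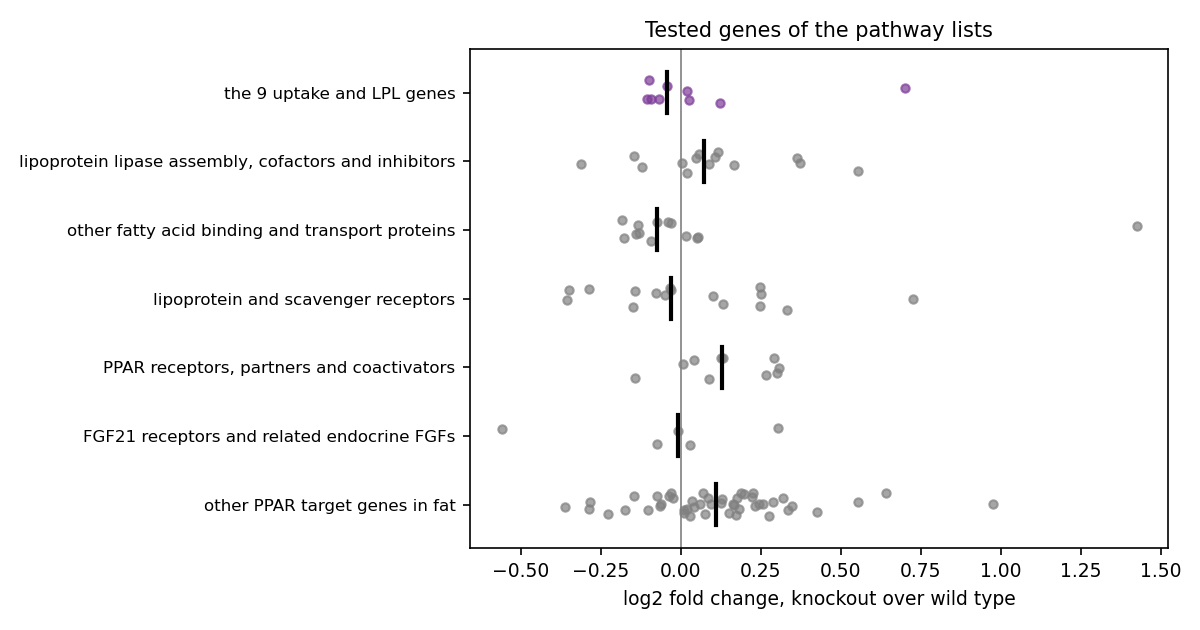
Log2 fold change, knockout over wild type, of every tested gene of the 9 (top) and of 6 further lists, 1 point per gene, with each list's median as a black line. The 9 genes centre at -0.04 with Olr1 at 0.70 as the outermost, and the medians of the other lists run from -0.07 to 0.13.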

How the data were processed

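Whole perigonadal adipose tissue of 4 knockout and 4 wild type mice was sequenced on a HiSeq4000 instrument, as the labels say. For each mouse the authors deposited raw counts per gene symbol, whole numbers whose totals differ between libraries. FastQC 0.11.2, STAR 2.4.0g1, featureCounts, Cufflinks, edgeR and the mm10 genome are named in the submitters' processing notes. No source used here gives their roles or the strand setting. Exon positions in another deposited file gave the exonic lengths by which RPKM was computed.

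Genes were kept with filterByExpr, scaled by TMM and tested in edgeR 4.0.16 (R 4.3.3) with robust quasi-likelihood F tests, no covariate, and Benjamini-Hochberg adjustment over 14493 genes at a threshold of 0.05. The common biological coefficient of variation was 0.301. SEs are those the F statistic implies and 95% intervals use its degrees of freedom. Correlations, with permutation over all pairings of mice, used log2 CPM (prior count 2). Each GEO sample is a mouse per the labels, and no pair of libraries of a genotype agreed within sampling noise. The fit was tested on simulated counts. DESeq2 1.42.0, limma voom 3.58.1, other scalings and filters, the replicate number as a block and libraries left out were alternatives. The genes and lists were chosen with earlier results of these data known, and lists were matched through RefSeq GRCm38.p6 symbols (7 by an older name, 2 without a match, Trac and Ighm). Named genes are the 9, of each other list the 3 with the smallest p and the most abundant, of marker lists the 2 most abundant, and for each of the 9 the 3 most alike in pattern, of which 1 is not reported here. Scarb1 and Adipoq, among others, enter by this rule. Of the listed genes, 23 did not have enough counts in enough libraries to be tested.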

Additional observations from a re-analysis of the deposited data

Results flagged for a closer look

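Of 36 groups of 4 mice examined, for the 9 genes and the 9 marker lists, 2 held a mouse far from the other 3, where chance gives about 1.8. Fgf21, with 8 counts in knockout mouse 2, had a log2 CPM of -2.28 there and -0.29 to 0.12 in the other knockout mice. The log2 summed CPM of the mature adipocyte markers was 15.3 in knockout mouse 3 and 14.9 in each of the other knockout mice.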

How the results depend on the processing

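In none of 17 alternatives did any of the 9 genes pass, and the smallest adjusted p among them was 0.882. Of 151 recomputed fold changes of the 9 genes, 133 kept their direction and 18 turned (Fgf21 and Olr1 fell below a filter of 1 CPM in 4 libraries), the turned ones all with libraries left out. Of 119 recomputed list medians, 52 changed sign or size by over 1.5 times. With each library left out they ran from -0.097 to 0.084 for the 9 genes, 0.0049 to 0.14 for lipase control, -0.096 to -0.038 for binding and transport, -0.087 to 0.097 for scavenger and lipoprotein receptors, 0.057 to 0.18 for PPARs and partners, -0.16 to 0.063 for FGF21 receptors and 0.043 to 0.22 for PPAR targets. Leaving out each library in turn gave log2 fold changes from -0.078 to 0.13 for Fabp4, -0.23 to 0.32 for Fabp5, -0.18 to -0.01 for Cd36, -0.36 to 0.025 for Lpl, -0.36 to 0.25 for Slc27a1, 0.06 to 0.21 for Angptl4, -0.19 to 0.012 for Gpihbp1, -0.28 to 0.28 for Fgf21 and 0.35 to 0.98 for Olr1. Without wild type mouse 3 and knockout mouse 2 together, Fabp5 was at -0.37, Gpihbp1 at 0.032 and Fgf21 at 0.15. Over all genes, 2 passed as reported, 17 in DESeq2, and 0 with total-count scaling, no low-count filter, limma voom, the replicate block, each library left out or that pair left out. The replicate number as a block changed no call among the 9 genes. Deviations of same-numbered mice correlated at -0.32 to 0.12, and the labels do not say whether a number marks a shared litter or day. Of 9 marker lists, 1 passed the unadjusted permutation test as reported, 0 with mean log2 CPM, and 0 to 1 with a library left out (0 without a knockout and 1 without a wild type library). The smooth muscle and pericyte groups stay apart whichever library is left out. With 3 mice against 4, passing turns on whether an opposite arrangement is as extreme. The split between genotypes therefore does not show a dependence on knockout mice. Without that pair 0 passed, but 3 mice against 3 cannot reach 0.05. Of 27 marker relations, 2 passed as reported, 0 without the 2 farthest mice and 0 without that pair. The spread between mice exceeded counting error for all 9 genes, with counting error largest beside it for Olr1 and Fgf21.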
